A study of Homo sapiens with 8 samples.

Results

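Antisense lncRNAs named after the coding gene they oppose were examined in A549 cells after knockdown of NFE2L2, the gene of the transcription factor NRF2. The set was chosen with earlier results of these data known, and its read rule used the control siRNA libraries: a non-coding gene whose GENCODE symbol ends in -AS1 was taken where at least 20 reads were assigned to it in at least 3 of the 4 control libraries. Of 1596 such symbols in the count table, 294 were chosen, and 563 had 0 reads in all 8 libraries. For 251 of the 294, the coding gene in the name met the same read rule and served as the sense partner. In 39 cases the partner had too few reads, and 4 members, HOXB-AS1 among them, had no coding gene of that name in the annotation. The annotation classed 290 members as lncRNA and 4, EMC3-AS1, SRP54-AS1, SVIL-AS1 and TP73-AS1, as transcribed pseudogenes, whose reads may be shared with related copies.

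A549 cells are a line established from a human lung adenocarcinoma, in which loss of KEAP1 function is known to keep NRF2 active. In each well, 250000 cells were transfected with 5 nmol siRNA by a lipid reagent and harvested after 48 h, and the RNA was depleted of ribosomal RNA and sequenced with strand information. The 3 NFE2L2 siRNA libraries each held a different duplex against NFE2L2, and the 4 control siRNA libraries held 2 control duplexes with 2 transfections each (control libraries 1 and 2 for the first duplex, 3 and 4 for the second). A single mock transfection had no replicate and was left out of the tests, except for 1 alternative fit that added it to the controls.

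Antisense lncRNAs are transcribed from the strand opposite a coding gene, often from a shared promoter region and in the other direction, and some regulate the gene they overlap while many have no known role. NRF2 binds antioxidant response elements and drives genes of glutathione synthesis, NADPH supply and detoxification. When it is lost, genes that it activates fall, and the -AS1 set asks whether the opposite strands of coding genes move with them.

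The knockdown was checked on NFE2L2 and its targets. NFE2L2 had 1178, 2044 and 1262 reads under NFE2L2 siRNA, 3974, 4100, 4166 and 4227 under control siRNA and 4408 after mock transfection, a log2 fold change (NFE2L2 siRNA over control siRNA, called log2 change from here on) of -1.55 (SE 0.178, adjusted p = 0.000995 by edgeR's quasi-likelihood test with Benjamini-Hochberg adjustment, which gives every adjusted p and log2 change below unless stated). NQO1, a quinone reductase, had a log2 change of -2.19 and GCLM, a subunit of the enzyme that starts glutathione synthesis, one of -2.52. Total gene counts per library were 35525141 to 41645410, and the mock library had 39498992. No pair of libraries differed by as little as sampling noise, since the chi-square per gene was 13.7 to 172. Epithelial KRT8, KRT18, KRT19, EPCAM and CDH1 had between 142 and 267462 reads in every library. The leukocyte markers PTPRC and CD3E and the fibroblast marker DCN had 0 to 3 reads, whereas CD14 had 156 to 394 and COL1A1 142 to 569. The libraries are separate transfections of 1 cell line with different duplexes, so that p-values measure the spread between transfections and between duplexes together. The tests counted the 2 transfections of a control duplex as independent. Such transfections had a chi-square per gene of 13.7 and 15.4, against 26.5 to 52.1 between the control duplexes. In bulk RNA, fewer cells that express a gene cannot be told apart from less of its RNA per cell.

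The -AS1 lncRNAs were weakly expressed, and a few of them held much of the signal. Their mean over the 4 control libraries had a median of 63.4 reads, with 111 members below 50 reads, 103 at 100 or more and 7 at 1000 or more. Together they took 0.129% to 0.152% of the gene counts of a control library, 0.139% to 0.155% with NFE2L2 siRNA and 0.157% in the mock library. The 2 highest members, FGD5-AS1 and OIP5-AS1, held 22.2% of these reads. In mean CPM (counts per 1000000 gene counts) over the controls, FGD5-AS1 stood at 164, OIP5-AS1 at 154, IGFL2-AS1 at 49.5, TMEM147-AS1 at 36.7 and EPB41L4A-AS1 at 29.8. Per kilobase of annotated exon the order changed, with FGD5-AS1 at 27.1 CPM, PITPNA-AS1 at 19.9, IGFL2-AS1 at 14.8 and AGAP2-AS1 at 8.996. SVIL-AS1 had 208 CPM per kilobase, but only 122 bases of its exons were found in the annotation mapped to GRCh37, so that this value is not comparable with the others.

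After NFE2L2 knockdown, few -AS1 lncRNAs passed the test, and those that did were reduced. The read rule used only control libraries, so near its limit it favoured genes that happened to be high in those libraries. Among weakly expressed members this can tilt log2 changes downward, so an excess of lower members is not by itself a result about -AS1 lncRNAs. The other non-coding genes that met the same rule share this tilt and are the closer comparison. At an adjusted p under 0.01, 3 of the 294 members passed (1.02%), against 2.76% of all 17811 tested genes and 3.19% of the 14711 genes that met the same read rule. All 3, PITRM1-AS1, IDI2-AS1 and CD27-AS1, fell, and no member rose. At an unadjusted p under 0.05, 45 members were lower (15.3%) and 14 higher (4.76%), against 12.9% and 13.8% of all genes that met the read rule and 13.2% and 4.84% of the other non-coding genes among them. With DESeq2, 7 fell and 2 rose, where 7.41% of all tested genes passed, and with limma-voom 3 fell and none rose, where 2.61% did. At an adjusted p under 0.05, 11 members passed, 9 lower and 2 higher (3.74%), against 8.17% of all tested genes and 5.87% of the other non-coding genes. The median log2 change of the members was -0.11, with 171 lower and 123 higher and a range of -1.99 to 1.02. It was 0.0082 over all tested genes, -0.063 over the 1549 other non-coding genes that met the read rule and 0.053 over the 251 sense partners.

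**Figure D1:**
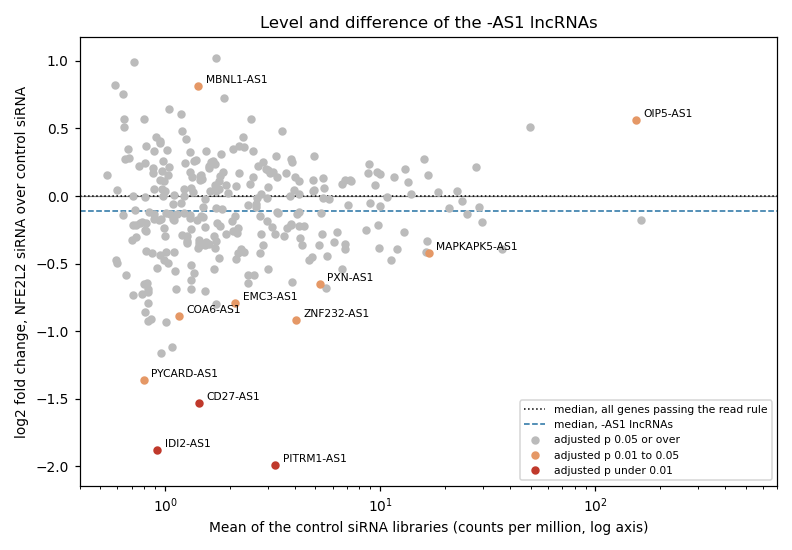
Each point is 1 of the 294 -AS1 lncRNAs, with its mean CPM in the control siRNA libraries on a log axis and its log2 change with NFE2L2 siRNA on the vertical axis. The 3 members with an adjusted p under 0.01 lie between -1.53 and -1.99, and the median of the members (dashed, -0.11) lies below that of all genes meeting the read rule (dotted, -0.0013).

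All 3 NFE2L2 siRNA libraries were below all 4 controls in CPM for 44 members (15.0%), where 13.1% of all genes meeting the read rule were. All 3 were above all controls for 14 members (4.76%), where 12% of all genes were. Other non-coding genes had shares of 13.6% below and 4.78% above, while coding genes had 13.0% and 13.2%. With a mean of at least 20 reads over the 7 compared libraries as the rule, 310 members (292 of them shared) had a median log2 change of -0.08, with 172 lower, and 3 passed, and the median of the other non-coding genes was -0.038. With at least 50 reads in 3 of the 4 controls, 172 members had a median of -0.066 and 1 passed. The other non-coding genes then had a median of -0.062, so that the members were hardly lower than those genes. The members just inside the limit, with a third-highest control of 20 reads, were PSMB8-AS1 (20, 26, 13 and 20 under control siRNA), TMEM51-AS1 (24, 20, 19 and 23) and PPP1R12A-AS1 (20, 24, 19 and 25). Among those just outside, with a third-highest control of 19, was EXTL3-AS1 (26, 18, 24 and 19).

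PITRM1-AS1 was the most reduced member, and its mock level was among those with NFE2L2 siRNA. It opposes PITRM1, which encodes a mitochondrial protease for presequence peptides. PITRM1-AS1 (ENSG00000237399.3) occupies positions 3183824 to 3210164 of chromosome 10 (plus strand, GRCh37), with 1637 bases of its exons opposite exons of PITRM1. It had 35, 30 and 30 reads under NFE2L2 siRNA, 113, 118, 135 and 112 under control siRNA and 33 after mock transfection. In CPM this was 0.811 ± 0.139 (SD, n = 3) against 3.25 ± 0.262 (SD, n = 4), a log2 change of -1.99 (SE 0.185, adjusted p = 0.000269). The groups did not overlap, and the mock library fell among the NFE2L2 siRNA libraries, 3.92-fold below the control mean. PITRM1 had 3502, 3989 and 4479 reads against 4721 to 5337 in the controls and 5499 in the mock library, a log2 change of -0.40 (adjusted p = 0.0175). PFKP, a phosphofructokinase of glycolysis, ends 3913 bases upstream of PITRM1-AS1 on the same strand and fell by 0.53 on the log2 scale (adjusted p = 0.00398), with 14207, 15065 and 16816 reads against 20314 to 21301, but it had 19154 reads in the mock library.

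IDI2-AS1 showed the same arrangement of groups. It opposes IDI2, an isopentenyl diphosphate isomerase of isoprenoid synthesis, and reaches into the ubiquitous isomerase gene IDI1. IDI2-AS1 (ENSG00000232656.3) occupies positions 1068558 to 1091365 of chromosome 10 (plus strand). It had 9, 7 and 13 reads under NFE2L2 siRNA, 30, 42, 29 and 34 under control siRNA and 12 after mock transfection, a log2 change of -1.88 (SE 0.284, adjusted p = 0.00426). With the 2 transfections of each control duplex summed, its adjusted p was 0.0417. The mock library again lay within the range of the NFE2L2 siRNA libraries and 3.05-fold below the control mean. IDI2 itself had 0 to 2 reads in every library, so that the pair could not be compared. IDI1 had a log2 change of 0.20 (adjusted p = 0.186) and GTPBP4, the GTP-binding protein gene 2685 bases upstream on the same strand, one of -0.19 (adjusted p = 0.314).

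CD27-AS1 was the called member whose mock level was that of the controls. CD27 is a receptor of the tumour necrosis factor family found on lymphocytes, and it had 0 or 1 read in every library here. CD27-AS1 (ENSG00000215039.2) occupies positions 6548167 to 6560773 of chromosome 12 (minus strand). It had 14, 23 and 21 reads under NFE2L2 siRNA, 58, 47, 61 and 45 under control siRNA and 61 after mock transfection, a log2 change of -1.53 (SE 0.230, adjusted p = 0.00419). The groups did not overlap, and the mock library lay within the controls at 1.07-fold their mean. With the 2 transfections of each control duplex summed, the adjusted p was 0.0454. VAMP1, a vesicle fusion protein gene that ends 10629 bases upstream on the same strand, had 183, 217 and 192 reads under NFE2L2 siRNA, 318 to 391 under control siRNA and 436 after mock transfection. Its log2 change was -0.91 (SE 0.135, adjusted p = 0.00384). TAPBPL, on the opposite strand, had one of 0.08 (adjusted p = 0.826). PFKP, VAMP1 and the other neighbours were looked up after the members' values were seen, as the coding genes within 50 kb.

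The start regions of the 3 called members are shown because a direct NRF2 site would be sought there. They are RefSeq promoter windows on GRCh38.p14, with 250 bases before the start site in lower case and the 50 bases from the start site onward in capitals, 5′ to 3′ on the strand of the lncRNA. PITRM1-AS1 is at chr10:3141351-3141650 on the plus strand, IDI2-AS1 at chr10:1022387-1022686 on the plus strand and CD27-AS1 at chr12:6451468-6451767 on the minus strand.
PITRM1-AS1: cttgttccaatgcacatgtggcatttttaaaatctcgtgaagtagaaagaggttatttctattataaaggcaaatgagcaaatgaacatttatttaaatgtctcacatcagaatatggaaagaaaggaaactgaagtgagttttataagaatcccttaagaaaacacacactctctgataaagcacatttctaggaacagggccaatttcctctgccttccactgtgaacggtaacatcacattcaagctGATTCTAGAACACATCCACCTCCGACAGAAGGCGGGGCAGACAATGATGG
IDI2-AS1: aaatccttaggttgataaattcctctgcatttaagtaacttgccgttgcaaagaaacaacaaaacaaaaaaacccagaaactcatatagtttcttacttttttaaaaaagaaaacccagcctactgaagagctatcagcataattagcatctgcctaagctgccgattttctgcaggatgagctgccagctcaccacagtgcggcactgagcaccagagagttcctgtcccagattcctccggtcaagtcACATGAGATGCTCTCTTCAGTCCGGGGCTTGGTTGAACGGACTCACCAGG
CD27-AS1: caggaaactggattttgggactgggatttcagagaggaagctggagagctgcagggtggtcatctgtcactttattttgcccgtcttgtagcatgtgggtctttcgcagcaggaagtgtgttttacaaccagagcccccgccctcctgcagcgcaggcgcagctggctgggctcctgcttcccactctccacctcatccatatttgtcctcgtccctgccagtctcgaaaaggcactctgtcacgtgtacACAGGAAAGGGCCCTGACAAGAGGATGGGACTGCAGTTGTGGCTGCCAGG
The core of the antioxidant response element, TGACNNNGC on either strand, was in none of the 3 windows, which says only that these letters are not there. It was in the window of 53 of the 231 members with a RefSeq promoter (22.9%), against 16.1% of all 27305 symbols with one. Of the 224 sense partners with a promoter, 43 had it (19.2%). The longer form with an A after the last base, each match of which is also a match of the core, was in 17 members (7.36%) and 3.94% of all symbols. The members' windows had a median GC content of 66.3%, against 58.7% for all windows. Of the 53 members with the core, none passed with edgeR, DESeq2 or limma-voom, and 5 were lower (9.43%) and 1 higher (1.89%) at an unadjusted edgeR p under 0.05. Of the 178 members with a promoter and no core, 34 were lower (19.1%) and 7 higher (3.93%), and the difference was not tested. At that p, 12.9% of all genes that met the read rule were lower and 13.8% higher. For the other non-coding genes these shares were 13.2% and 4.84%. Of all 294 members, 1.02% passed by edgeR and by limma-voom. With DESeq2, 2.38% were called lower and 0.68% higher. The absence of calls among 53 members is therefore no result about the motif. The median log2 change of members with the core was -0.09, against -0.16 for members without it.

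The other 8 members at an adjusted p under 0.05 included both directions. PYCARD-AS1, opposite the gene of the inflammasome adaptor ASC, had 15, 10 and 11 reads under NFE2L2 siRNA, 29, 26, 26 and 36 under control siRNA and 6 after mock transfection. Its log2 change was -1.36 (adjusted p = 0.0192), and the mock library lay below every other library, 5.29-fold under the control mean. PYCARD had a log2 change of 0.24 (adjusted p = 0.334). PXN-AS1, opposite the focal adhesion gene paxillin, had 107, 144 and 140 reads against 178 to 210 in the controls, a log2 change of -0.65 (adjusted p = 0.0186). MAPKAPK5-AS1, which starts 889 bases from the kinase gene MAPKAPK5, had 427, 482 and 569 reads against 601 to 650, a log2 change of -0.42 (adjusted p = 0.0317). In both, all NFE2L2 siRNA libraries were below all controls, and the mock library, with 214 and 758 reads, was not. ZNF232-AS1 (-0.92, adjusted p = 0.0347), COA6-AS1 (-0.89, adjusted p = 0.0417) and EMC3-AS1 (-0.79, adjusted p = 0.0425) were lower in log2 change with no overlap of the groups. PXN-AS1 and ZC3H12A-DT, described further on, were named after their values were seen.

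OIP5-AS1 was the most abundant member with an adjusted p under 0.05, and it was higher. It is the conserved lncRNA also known as cyrano, which is known to bind and destabilise the microRNA miR-7. It had 8632, 7924 and 10134 reads under NFE2L2 siRNA, 5301, 5264, 6369 and 5780 under control siRNA and 6256 after mock transfection. The log2 change was 0.56 (SE 0.106, adjusted p = 0.0122), all 3 NFE2L2 siRNA libraries lay above all controls, and the mock library lay within the controls. OIP5, a centromere protein gene, had 312, 502 and 285 reads against 402 to 489, a log2 change of -0.41 (adjusted p = 0.24). MBNL1-AS1, opposite the splicing factor gene MBNL1, had 88, 114 and 92 reads against 43 to 61 in the controls and 53 in the mock library, a log2 change of 0.81 (adjusted p = 0.0281), while MBNL1 had one of 0.02.

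**Figure D2:**
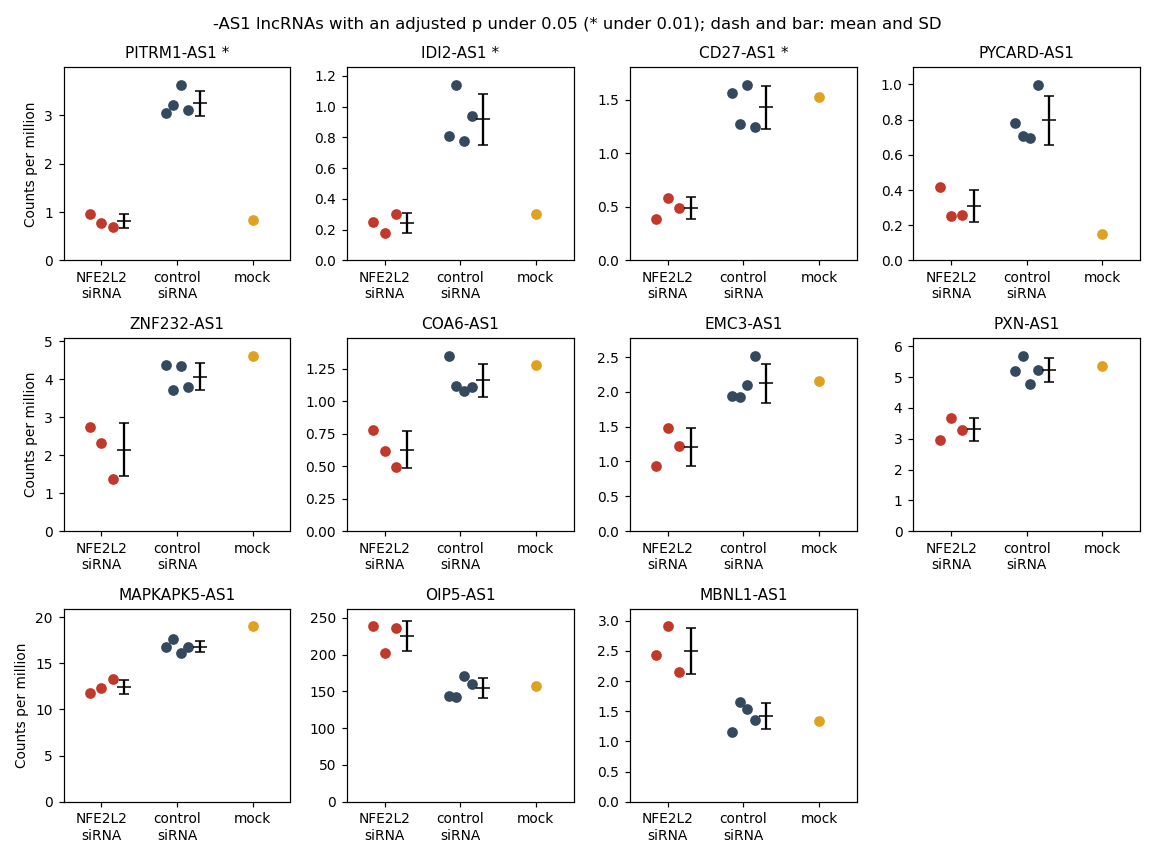
Points show the CPM of each library for the 11 -AS1 lncRNAs with an adjusted p under 0.05, by group, with the mean and SD beside the replicated groups. In none of the 11 panels do the NFE2L2 siRNA and control siRNA points overlap, and the mock point lies with or below the NFE2L2 siRNA points for PITRM1-AS1, IDI2-AS1 and PYCARD-AS1.

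Other members with large differences did not pass. Among the members with a mean of at least 50 reads, LMNTD2-AS1 had the highest log2 change, 1.02 (adjusted p = 0.0906), with 70, 136 and 217 reads against 73, 36, 73 and 73, so that the first duplex lay at the level of the controls. DENND5B-AS1 had 100, 63 and 44 reads against 31 to 62 (adjusted p = 0.327). SPACA6-AS1, with 141, 104 and 118 reads against 55 to 89, was above all controls at a log2 change of 0.72 (adjusted p = 0.0674). TNS2-AS1, with 127, 120 and 192 against 79 to 104, was also above them, at 0.57 (adjusted p = 0.0747). ATP2C2-AS1 had 51, 32 and 32 reads against 44 to 77, a log2 change of -0.80 (adjusted p = 0.114). ZFPM2-AS1 had 158, 124 and 125 reads against 181 to 242 and 225 after mock transfection, a log2 change of -0.68 (adjusted p = 0.0565), with all NFE2L2 siRNA libraries below all controls. RORA-AS1 had 21, 16 and 21 reads against 57, 45, 30 and 27, a log2 change of -1.12 (adjusted p = 0.0569), with higher values under the first control duplex than under the second.

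The sense partners moved in both directions. Of the 251 partners, 10 passed at an adjusted p under 0.01 (3.98%), 6 lower and 4 higher, and 26 passed at 0.05 (10.4%), 11 lower and 15 higher. Of the 12527 coding genes that met the read rule, 3.38% and 9.62% passed, so that in adjusted calls the partners were near the background. At an unadjusted edgeR p under 0.05, 10.4% of the partners were lower and 20.3% higher, against 12.8% and 15.3% of coding genes. All NFE2L2 siRNA libraries lay below all controls for 12.4% of partners and above them for 19.1%, against 13.0% and 13.2% of coding genes. These differences were not tested. No pair had both members past the threshold with edgeR or limma-voom, and DESeq2 gave 1 such pair, PITRM1-AS1 with PITRM1. At an unadjusted edgeR p under 0.05 for both, there were 23 pairs. They included pairs of the same direction, such as that of COA6, and of opposite directions, such as that of ENTPD1. Taken singly, 15.3% of the members were lower and 4.76% higher at that p, beside the partners' shares above. The number of pairs to be found if both genes were unrelated was not computed.

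UGDH was the most reduced partner, and its antisense lncRNA did not pass the test. UGDH makes the UDP-glucuronic acid used to conjugate drugs and is a known NRF2 target. It had 9196, 9873 and 12218 reads under NFE2L2 siRNA, 32397, 28027, 27065 and 26503 under control siRNA and 31417 after mock transfection, a log2 change of -1.54 (SE 0.102, adjusted p = 2.77e-05). UGDH-AS1 had 27, 32 and 50 reads, 32, 45, 39 and 32 reads and 56 reads in the same order, a log2 change of -0.12 (SE 0.237, adjusted p = 0.788). The UGDH-AS1 groups overlapped, and its control reads were 0.13% of those of UGDH, the lowest share of any pair. The log2 ratio of antisense to sense CPM was 1.41 higher with NFE2L2 siRNA than with control siRNA, with no overlap of the groups.

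The RefSeq starts of UGDH-AS1 and UGDH are 400 bases apart on opposite strands and those of NQO2-AS1 and NQO2 219 bases apart, so that the windows of each pair share 101 and 282 bases. They are shown because part of the UGDH-AS1 window and most of the NQO2-AS1 window also lie in the start window of a reduced coding gene. Neither lncRNA passed. In the annotation on GRCh37, used for the position classes further on, the starts of the NQO2 pair are 11617 bases apart. That pair was therefore not counted as bidirectional there. In the layout used above, UGDH-AS1 is at chr4:39527589-39527888 on the plus strand and NQO2-AS1 at chr6:2999626-2999925 on the minus strand.
UGDH-AS1: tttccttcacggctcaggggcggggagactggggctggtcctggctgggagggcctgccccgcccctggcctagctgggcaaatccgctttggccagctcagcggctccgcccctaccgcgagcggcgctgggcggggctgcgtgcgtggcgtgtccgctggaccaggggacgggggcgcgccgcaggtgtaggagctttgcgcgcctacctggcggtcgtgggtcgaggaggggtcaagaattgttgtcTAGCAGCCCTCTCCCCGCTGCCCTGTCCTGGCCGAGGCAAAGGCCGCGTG
NQO2-AS1: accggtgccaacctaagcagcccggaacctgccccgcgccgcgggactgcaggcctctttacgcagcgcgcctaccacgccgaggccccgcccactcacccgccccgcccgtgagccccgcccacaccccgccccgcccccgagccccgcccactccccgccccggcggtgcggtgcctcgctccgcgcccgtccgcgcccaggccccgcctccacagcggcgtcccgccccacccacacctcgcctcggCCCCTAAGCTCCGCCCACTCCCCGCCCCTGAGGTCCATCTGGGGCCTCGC
Neither window held the core motif. Their GC contents were 71.7% and 79.3%.

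For the 5 other reduced partners, the antisense lncRNA had a negative log2 change in 4 pairs and passed 0.01 in none. NQO2, a quinone reductase related to NQO1, had 614, 885 and 715 reads against 1639 to 1984, a log2 change of -1.37 (adjusted p = 0.000307), and NQO2-AS1 had 26, 10 and 26 reads against 37, 29, 35 and 21, one of -0.64 (adjusted p = 0.287). MSC, the transcriptional repressor musculin, had 112, 196 and 271 reads against 376 to 471, a log2 change of -1.29 (adjusted p = 0.0068), and MSC-AS1 had 65, 105 and 127 against 128 to 155, one of -0.64 (adjusted p = 0.0653). The MSC-AS1 groups did not overlap, unlike those of NQO2-AS1. TSKU, a secreted proteoglycan gene, had 4825, 8550 and 9081 reads against 12417 to 16158, a log2 change of -1.01 (adjusted p = 0.00714), and TSKU-AS1 had 20, 17 and 18 against 21 to 37, one of -0.73 (adjusted p = 0.13). COA6, an assembly factor of cytochrome c oxidase, had 1394, 1164 and 1294 reads against 1738 to 2229, a log2 change of -0.73 (adjusted p = 0.00902). COA6-AS1, which starts 208 bases from COA6, had 28, 24 and 21 reads against 40 to 50 and 51 in the mock library, a log2 change of -0.89. All NFE2L2 siRNA libraries were below all controls for both genes, and the antisense to sense log2 ratio differed by -0.06 (exact permutation test, p = 0.571). PSMG3, a proteasome assembly chaperone gene, fell by 0.56 on the log2 scale (adjusted p = 0.00975), with 1096, 1264 and 1133 reads against 1549 to 1746, while PSMG3-AS1, with 231, 175 and 265 against 192 to 216, had a log2 change of 0.06.

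The 4 increased partners each had an antisense lncRNA with a log2 change below 0, none of which passed. A lncRNA below 0 was common whatever the partner did. It was found for 81 of the 149 partners above 0 and for 65 of the 102 partners below 0. ENTPD1, the ectonucleotidase CD39, had 60, 49 and 69 reads against 17, 22, 23 and 22 in the controls and 34 in the mock library, a log2 change of 1.41 (SE 0.212, adjusted p = 0.00426). ENTPD1-AS1 had 193, 194 and 224 reads against 239 to 260 and 298, one of -0.39 (SE 0.115, adjusted p = 0.0657). In the controls ENTPD1-AS1 had 1199% of the reads of ENTPD1. TENM3, a teneurin adhesion receptor gene, had 1066, 1356 and 1966 reads against 654 to 827, a log2 change of 0.90 (adjusted p = 0.00839), with TENM3-AS1 at -0.06. VASH1, a tubulin carboxypeptidase gene, had 562, 619 and 758 against 328 to 421, a log2 change of 0.71 (adjusted p = 0.00592), with VASH1-AS1 at -0.13. VPS9D1 had 484, 552 and 669 against 308 to 350, a log2 change of 0.67 (adjusted p = 0.00547), with VPS9D1-AS1 at -0.59 (adjusted p = 0.181). VPS9D1-AS1 had 41, 76 and 87 reads against 116, 107, 92 and 66, so that its groups overlapped.

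**Figure D3:**
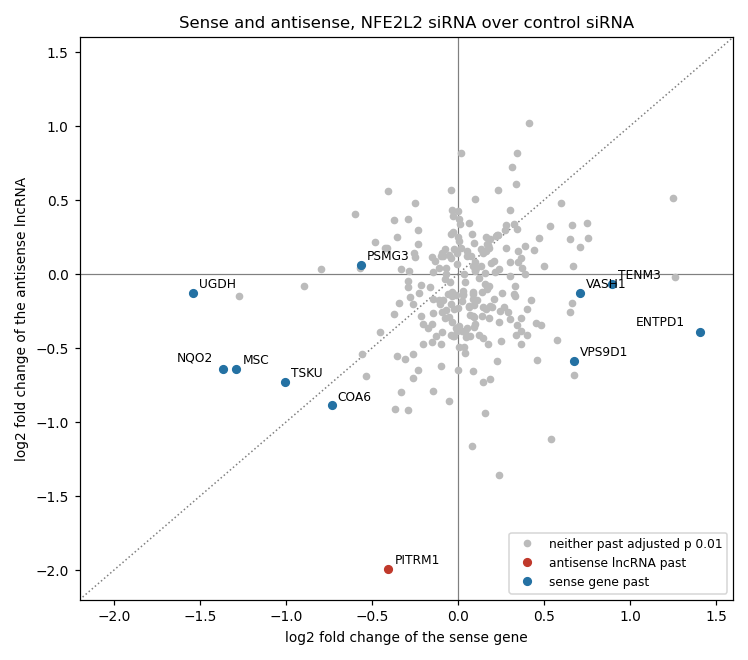
Each point is 1 of 251 pairs, with the log2 change of the sense gene on the horizontal axis and that of the antisense lncRNA on the vertical axis, and equality dotted. The 10 pairs with a sense gene past an adjusted p of 0.01 (blue) run from UGDH at -1.54 to ENTPD1 at 1.41 along the horizontal axis, with antisense values between -0.89 and 0.06, and PITRM1-AS1 stands alone at -1.99.

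Across the 251 pairs, the direction of the lncRNA followed that of its partner in 133 pairs and opposed it in 118. Both were lower in 65 pairs and both higher in 68. The lncRNA was lower and the partner higher in 81, and the reverse held in 37. As a description across pairs, which are not independent replicates and share libraries, Pearson's r between the log2 changes was 0.18 and Spearman's rho 0.15 (n = 251). By position, 91 pairs were bidirectional, with opposite strands and start sites within 1000 bases in the annotation on GRCh37, and 49 of them had the same direction. Of 155 pairs that overlapped otherwise, 80 did, and of 5 pairs that did not overlap, 4 did. Exons overlapped on opposite strands in 201 pairs. In the controls, the antisense reads were 0.13% to 2398% of the sense reads, with a median of 6.24%. They were fewer than 1% in 34 pairs and more than the sense reads in 20, and per kilobase of exon the lncRNA was higher in 29 pairs. This last count is approximate, since the exon lengths may differ from those of the counted models. The pair of IGFL2-AS1 had the highest share. IGFL2-AS1 had 2066, 2578 and 3755 reads against 1613 to 1962 (log2 change 0.51, adjusted p = 0.0579) and IGFL2, an insulin growth factor-like gene, 250, 124 and 198 against 53 to 101 (1.25, adjusted p = 0.0349). For both genes all NFE2L2 siRNA libraries lay above all controls, and so did the mock library, with 2452 and 171 reads.

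The ratio of antisense to sense CPM was compared for the 34 named pairs, several of which were named for their difference, so that these tests describe the pairs and do not select them. The NFE2L2 siRNA and control siRNA libraries did not overlap for 17 of the 34. Many of these pairs were named because 1 of their genes changed, which favours separation. The ratio was not computed for the other pairs, so that this count is no result about the 251 pairs. The 7 libraries were permuted in a two-sided exact test, in which 35 divisions are possible and the share of the smaller tail was doubled. The smallest p of this form is 0.0571, so that 0.05 could not be reached with it. With Benjamini-Hochberg adjustment over the 34, the smallest was 0.114. On the log2 scale with 0.1 CPM added, the difference of NFE2L2 siRNA minus control siRNA was -1.65 for ENTPD1-AS1, -1.47 for PITRM1-AS1, -1.46 for RORA-AS1, -1.36 for PYCARD-AS1 and -1.24 for VPS9D1-AS1, each with an exact permutation p of 0.0571. It was 1.41 for UGDH-AS1 and 1.01 for OIP5-AS1, with the same exact permutation p. For TSKU-AS1 (0.43, exact permutation p = 0.343) and NQO2-AS1 (0.75, exact permutation p = 0.229) the groups overlapped.

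**Figure D4:**
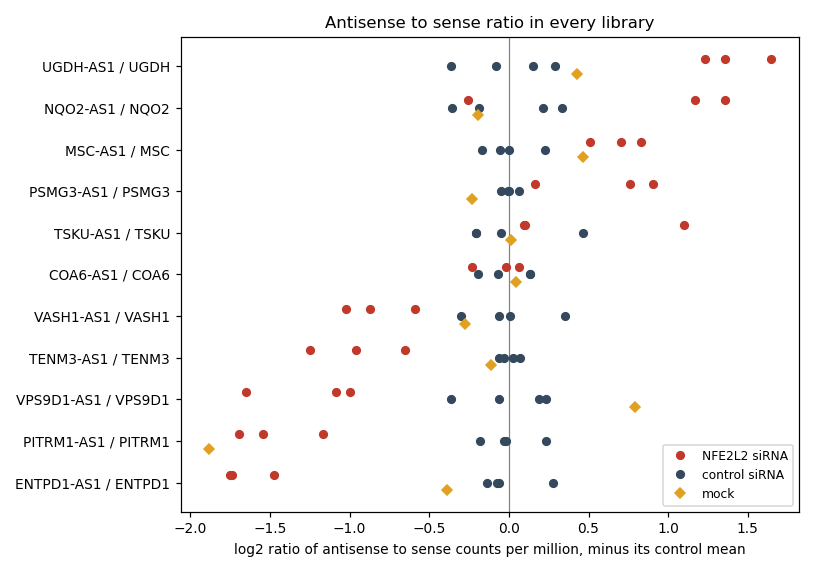
The log2 ratio of antisense to sense CPM, minus its mean over the control siRNA libraries, is shown for every library in the 11 pairs in which 1 member passed an adjusted p of 0.01. The NFE2L2 siRNA points lie left of all control points from ENTPD1-AS1 to VASH1-AS1 and right of them for UGDH-AS1, MSC-AS1 and PSMG3-AS1, and the mock point follows NFE2L2 siRNA in the PITRM1 pair.

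The NRF2 target genes were reduced, but few of them had an -AS1 lncRNA with enough reads. Of 45 listed targets, 43 met the read rule and 41 were reduced, with a median log2 change of -1.69. The list was drawn up with results of these data known and is not independent evidence. Among these targets, UGDH and IDH1, the cytosolic isocitrate dehydrogenase, had an -AS1 member. IDH1 had 14752, 18091 and 19579 reads against 17498 to 25724, a log2 change of -0.34 (adjusted p = 0.152), and IDH1-AS1 had 28, 21 and 31 reads against 25 to 33, one of -0.19 (adjusted p = 0.647). Neither group pair was separated. The antisense genes of 4 other targets were below the read rule. GCLC-AS1 had 0 reads in all 8 libraries, SLC7A11-AS1 and CBR1-AS1 at most 2 reads and CBR3-AS1 5 to 11 reads, so that a change in them was not detectable at this depth.

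Partners were also grouped by role, mostly by the start of their symbols. The 27 pairs with transcription factor genes had a median log2 change of -0.0015 for the lncRNA and 0.17 for the partner, and none passed with edgeR in either group. At an unadjusted edgeR p under 0.05, 1 lncRNA was lower and 7 partners were higher (25.9%), where 20.3% of all 251 partners and 15.3% of coding genes were higher, and DESeq2 called 1 lncRNA, ZNF232-AS1, and 2 partners, HIF1A and NR2F2. The 11 pairs with membrane transport genes had lncRNA log2 changes of -0.62 to 0.30 and no gene of either kind with an unadjusted edgeR p under 0.05 or a call by edgeR, DESeq2 or limma-voom. In the 9 pairs of the ubiquitin and proteasome list, which also held the myotubularin-related gene SBF2, 1 partner (PSMG3) passed and the lncRNAs ran from -0.65 to 0.21. In the 7 pairs of the mitochondrial and metabolic list, which also held the inflammasome gene PYCARD, PITRM1-AS1 and UGDH passed. Both lists included genes whose values were known. By edgeR, 1.02% of all 294 members and 3.98% of all 251 partners passed 0.01. At an unadjusted edgeR p under 0.05, 15.3% of all members were lower and 4.76% higher. For all partners these shares were 10.4% and 20.3%. The lists are small and were not tested against these shares. Few or no calls in a list are therefore no result about its role.

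Of 24 members on a list of well described -AS1 lncRNAs, 2 were reduced, PITRM1-AS1 and IDI2-AS1, which had been put on the list with their values known. Of the most abundant others, which included OIP5-AS1 and MAPKAPK5-AS1, FGD5-AS1 had a log2 change of -0.18, EPB41L4A-AS1 one of -0.19, PSMA3-AS1 one of 0.21, THUMPD3-AS1 one of -0.04, TP73-AS1 one of 0.15 and PRKCQ-AS1 one of -0.39, with adjusted p-values of 0.119 to 0.901. FGD5-AS1 had 4957, 5463 and 6663 reads under NFE2L2 siRNA against 5889 to 6208 in the controls, and the groups overlapped. PSMA3-AS1 had 1468, 954 and 1337 against 953 to 1187, with the second duplex at the level of the controls.

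Other classes of lncRNA named after a coding gene were counted in the same fit. Of 148 divergent transcripts with symbols ending in -DT, 1 was reduced, with a median log2 change of -0.10 for the class, where 2.32% of non-coding genes other than the members passed in either direction. DESeq2 called 5 lower (3.38%) and 1 higher (0.68%), where it called 4.26% and 1.03% of the other non-coding genes. At an unadjusted edgeR p under 0.05, 19 were lower (12.8%) and 6 higher (4.05%), against 13.2% and 4.84% of the other non-coding genes. The -DT class was thus near this background. ZC3H12A-DT, upstream of the gene of the RNase regnase-1, had 248, 200 and 294 reads under NFE2L2 siRNA, 663, 644, 737 and 732 under control siRNA and 992 after mock transfection, a log2 change of -1.58 (adjusted p = 0.000239). The mock library lay above all controls. Of 18 genes ending in -AS2 to -AS5, none passed with edgeR or limma-voom. At an unadjusted edgeR p under 0.05, 2 were lower (11.1%) and 1 higher (5.56%), and DESeq2 called 1 (5.56%). Beside the same background shares, so few genes give no result about this class.

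The mock library lay above the controls for more -AS1 lncRNAs than it lay below them. It shares the control libraries with the comparison above, and with 1 mock library there is no replicate. Mock CPM lay above all 4 controls for 108 members (36.7%), where 23.1% of all genes meeting the read rule did, and below all controls for 28 members (9.52%), where 22.5% of all genes did. The median log2 ratio of mock to control mean was 0.12 for the members, 0.03 for other non-coding genes and 0.006 for all genes. Against any 3 of the controls, mock was above for 113 to 133 members (38.4% to 45.2%), where 26.8% to 28.0% of all genes meeting the read rule were. Each control library was above the other 3 for 47 to 103 members (16.0% to 35.03%), where 21.2% to 29.7% of all genes were. Control libraries 1 and 2, of the first duplex, had 105 (35.7%) and 87 (29.6%) members below the other 3, against 26.0% and 20.6% of all genes. Control libraries 3 and 4, of the second, had 50 (17.0%) and 52 (17.7%), against 31.6% and 21.8% of all genes. A mock level at least 2-fold from the control mean and outside their range was found for PITRM1-AS1, IDI2-AS1 and PYCARD-AS1, all lower. The share of all genes with such a mock level was not computed, so that this count is no result about -AS1 lncRNAs. It also rests on 1 mock library with few reads for each of these members. BCDIN3D-AS1, named after its values were seen, had 67 reads in the mock library against 28 to 39 in the controls, 1.90-fold the mean.

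**Figure D5:**
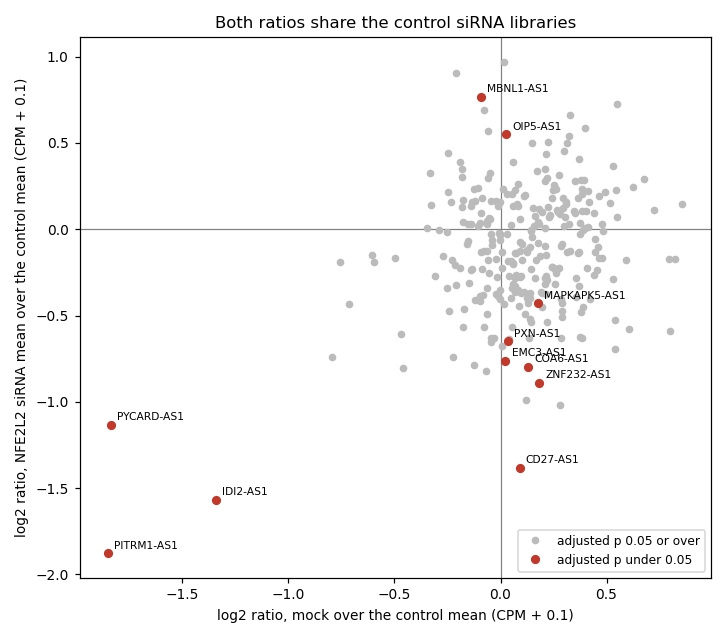
For each of the 294 -AS1 lncRNAs, the log2 ratio of mock to the control mean is on the horizontal axis and that of the NFE2L2 siRNA mean to the control mean on the vertical axis, both with 0.1 CPM added. Both axes share the 4 control libraries, and PITRM1-AS1, IDI2-AS1 and PYCARD-AS1 lie low on both, while CD27-AS1 is low on the vertical axis and near 0 on the horizontal one.

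With the mock library added to the controls, 3 members passed, CD27-AS1, PXN-AS1 and OIP5-AS1, of which only CD27-AS1 was among the 3 called without it. Of all tested genes, 4.31% passed in that fit, against 2.76% without the mock library. PITRM1-AS1 passed in each of the 7 fits that left out 1 library, with log2 changes of -2.14 to -1.89, while IDI2-AS1 and CD27-AS1 each passed in 1 of the 7, the fit without the second NFE2L2 siRNA, with adjusted p-values of up to 0.0194 and 0.0196 in the others. Of the 10 sense partners, UGDH and NQO2 passed in all 7 of these fits and the others in 1 to 3, with adjusted p-values of up to 0.046. Among all tested genes, 0.917% to 5.16% passed in these 7 fits, the most without the second NFE2L2 siRNA.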

How the data were processed

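The authors aligned stranded total RNA reads to hg19 with HISAT 0.1.6 and deposited, for each library, raw read counts per gene of GENCODE version 19, made with HTSeq 0.6.0 on the matching strand in its strict intersection mode. The lists of genes and the members were chosen with earlier results of these data known. Symbols, gene types and GRCh37 positions came from GENCODE version 44 mapped to GRCh37 (55538 of 60291 identifiers matched), so that exon models may differ from those counted.

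From the counts, 17811 genes that reached 10 reads in any of the 7 compared libraries were tested with edgeR 4.0.16 (TMM factors, quasi-likelihood test, two-sided) and Benjamini-Hochberg adjustment over all of them, under R 4.3.3. CPM used TMM-scaled gene counts. DESeq2 1.42.0, limma 3.58.1 (voom), other scalings, filters and control sets were alternatives. Reads assigned to no gene, 34.4% to 39.7% of a library, stayed out. Depth was 35525141 to 41645410 gene counts.

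Genes were named by a rule: members past 0.01 with their partners, the 5 most reduced and increased members with a mean of at least 50 reads, the 5 highest by CPM and per kilobase, pairs with a partner past 0.01 or on the NRF2 target list, the pairs with the largest difference, members at least 2-fold off in the mock library, abundant well described members and members at the read limit. PECAM1, a planned endothelial marker, was not analysed here. Some members at the read limit and some markers are not reported here.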

Additional observations from a re-analysis of the deposited data

Results flagged for a closer look

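Within the 4 control siRNA libraries, 1 library stood apart by Dixon's 95% criterion for 4 of the 58 named genes examined. Chance marks about 1 in 20 groups, or 2.9 here. For COA6-AS1, control library 1 had 50 reads and the others 40 to 41, with a gap of 0.860 of the range. For ENTPD1, control library 1 had 17 reads and the others 22 to 23, with a gap of 0.870. For ENTPD1-AS1, control library 2 had 239 reads and the others 251 to 260, with a gap of 0.911. For LMNTD2-AS1, control library 2 had 36 reads where each of the others had 73, with a gap of 0.942.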

How the results depend on the processing

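The counts of genes past an adjusted p of 0.01 depended on the settings, as follows. For the -AS1 lncRNAs (3) and the sense partners (10), DESeq2 gave 9 and 26, and a filter of at least 1 read in any library 6 and 22. Control duplex 1 alone gave 1 and 3, control duplex 2 alone 0 and 1 (edgeR) and the summed duplexes 1 and 1. An adjusted p under 0.05 gave 11 and 26. At least 50 control reads gave 1 and 5, with 70 of 135 pairs of the same direction in place of 133 of 251. With the mock library added, 18 partners passed. Leaving out 1 library gave 1 to 5 lncRNAs and 2 to 18 partners, the highest of both without the second NFE2L2 siRNA. The share of all tested genes past 0.01 moved as well. It was 2.76% in the main fit, 7.41% with DESeq2 and 3.40% with the 1-read filter. It was 0.681% with control duplex 1 alone, 0.334% with control duplex 2 alone, 0.419% with the summed duplexes and 4.31% with the mock library added. With 1 library left out it was 0.917% to 5.16%, again highest without the second NFE2L2 siRNA. The median log2 change of the lncRNAs was -0.027 against control duplex 1 alone and -0.15 to -0.07 under all other settings. The longer motif form was in 17 promoters in place of 53. Without TMM factors, mock was above the controls for 116 members and below for 20. The cause of these shifts was not tested, except that smaller sets follow from the stricter limits.

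Some small differences changed sign. The antisense to sense log2 ratio of COA6-AS1 became 0.17 with 0.5 CPM added. The log2 change became -0.061 for PSMB8-AS1, -0.00046 for PSMG3-AS1, 0.013 for TENM3-AS1 and 0.062 for THUMPD3-AS1 against control duplex 1 alone, 0.020 for SVIL-AS1 against control duplex 2 alone and -0.055 for PSMB8-AS1 with the mock library added. With 1 library left out at a time, the log2 ratio ran from -0.13 to 0.022 for COA6-AS1, -0.12 to 0.52 for DENND5B-AS1, -0.25 to 0.17 for PSMB8-AS1, -0.12 to 0.22 for SVIL-AS1 and -0.0152 to 0.15 for THUMPD3-AS1, and the log2 change from -0.12 to 0.37 for PSMB8-AS1, -0.035 to 0.20 for PSMG3-AS1, -0.31 to 0.11 for SVIL-AS1, -0.20 to 0.070 for TENM3-AS1 and -0.15 to 0.047 for THUMPD3-AS1. No paired analysis was possible because a number names a different duplex in each NFE2L2 siRNA library and a repeat of a duplex in the controls.

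With a median of 63.4 control reads, small changes of most members are not detectable, and 3 against 4 libraries cannot separate duplex effects from the knockdown, since each NFE2L2 duplex was transfected once.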
